A study of Caenorhabditis elegans with 6 samples.

Results

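The 10 genes described here encode mitochondrial chaperones, mitochondrial proteases and regulators of the mitochondrial unfolded protein response in Caenorhabditis elegans. They were chosen by name from the 45132 genes listed for every library: hsp-6, hsp-60, dnj-10, clpp-1, lonp-1, ymel-1, spg-7, atfs-1, dve-1 and ubl-5. RNA came from whole worms of the wild-type strain N2, given either bacteria that silence the yolk protein gene vit-5 or bacteria with the L4440 vector as the control, as larvae. As young adults all worms were placed on OP50 bacteria at 20 °C and were collected when 5 days old. There were 3 vit-5 RNAi and 3 control RNAi libraries, and expression is given as FPKM, a fragment count corrected for transcript length and library size. The labels do not say whether replicates were separate cultures, so the p-values rest on variation among libraries that may be technical.

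Most mitochondrial proteins are made in the cytosol and imported unfolded, and chaperones of the HSP70 and HSP60 types fold them in the matrix. Proteases of the matrix and inner membrane remove those that fail to fold. When import falters, the transcription factor ATFS-1, which is otherwise imported and degraded, reaches the nucleus. Together with DVE-1 and UBL-5 it raises the transcription of hsp-6 and hsp-60, the standard reporters of this response in the worm.

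All 10 genes passed the filter on low values, which kept the 12908 genes that reached 1 FPKM in 3 or more libraries. In brief, hsp-6 differed little between groups, hsp-60 was lower in every vit-5 RNAi library than in any control library, and dnj-10, lonp-1, ymel-1, spg-7, atfs-1 and dve-1 were higher in every vit-5 RNAi library. Of the 10 genes, 0 passed an adjusted p of 0.05 in limma, as was the case for 0% of all tested genes. Even the targeted gene vit-5 did not pass (limma adjusted p 0.0552), so a gene that did not pass cannot be called unchanged. Before adjustment, limma gave p under 0.05 to 4 higher genes (dnj-10, lonp-1, dve-1 and ymel-1) and to 1 lower gene (hsp-60). Over all tested genes 26.2% were higher and 0.906% lower at that level.

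Groups that did not overlap were also common in these data. Of the 10 genes, 6 were higher in every vit-5 RNAi library, against 30.8% of all tested genes, and 1 was lower, against 3.15%. All tested genes together had a median log2 fold change of 0.34, and 79.5% of them were above 0, as were 8 of the 10. The 10 genes had a median of 0.39. Median-of-ratios scaling, which divides each library by a single factor, left all tested genes at a median of 0.03, with 52.6% above 0. A single factor moves genes of every expression level alike, and quantile scaling gave other values. The log2 fold change of hsp-6 was -0.41 after median-of-ratios and -0.07 after quantile scaling. That of hsp-60 was -0.69 and -0.38, and that of dnj-10 was 0.57 and 0.50. The 10 genes had a median of 0.05 after median-of-ratios scaling, with 5 above 0 and 5 below. After quantile scaling 7 were above 0 and 3 below. On the median-of-ratios scale dnj-10 and lonp-1 did not overlap as higher (14.4% of all tested genes), and hsp-6, hsp-60 and clpp-1 did not overlap as lower (16.3%). At an unadjusted limma p under 0.05 the median-of-ratios values gave dnj-10 as higher (9.23% of all tested genes) and hsp-60 and hsp-6 as lower (12.1%).

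**Figure D1:**
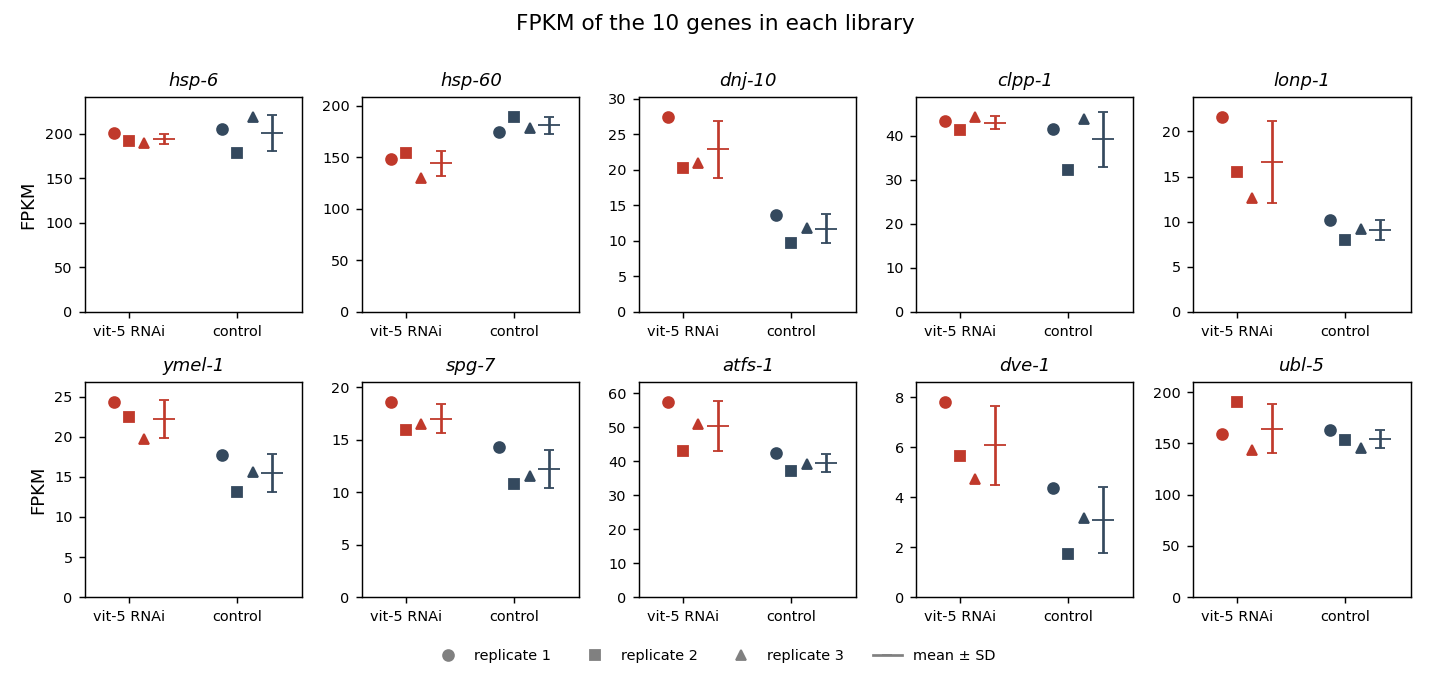
FPKM of each gene in the 3 vit-5 RNAi libraries (red, left) and the 3 control libraries (dark, right), with marker shapes for replicate numbers and bars for mean ± SD, each panel on its own axis from 0. The vit-5 RNAi values of hsp-60 lie at 130.2 to 154 FPKM, below all control values, and those of dnj-10 at 20.2 to 27.5 FPKM, above all control values.

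The targeted gene and the state of the libraries were checked first. The vit-5 transcript stood at 116, 51.6 and 22.8 FPKM in vit-5 RNAi libraries, against 2335, 1396 and 1573 FPKM in control libraries. Its log2 fold change was -5.03, with a limma adjusted p of 0.0552. Some larval cuticle collagens varied widely within both groups: rol-6 had 3.15, 27.8 and 202 FPKM in vit-5 RNAi libraries and 3.41, 107 and 117 FPKM in control libraries. Replicate 1 thus had the least rol-6 in each group. The larval cuticle genes were not uniform, as dpy-17 and sqt-3 were highest in replicate 1 of both groups. For dpy-17 the values were 426, 340 and 89.1 FPKM in vit-5 RNAi libraries and 320, 99.6 and 102 FPKM in control libraries. Summed FPKM of 12 germline and oocyte markers ran from 2932 to 5412 in vit-5 RNAi libraries and from 3914 to 5430 in control libraries, with replicate 1 highest in each group. Ribosomal RNA took 0.209%, 0.339% and 2.68% of the FPKM sum in vit-5 RNAi libraries and 0.45%, 1.95% and 0.659% in control libraries. In whole worms, fewer cells of a type and less RNA per cell cannot be told apart.

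The 3 chaperone genes stood on different sides of the control values. The gene hsp-6 (chromosome V, 4824124 to 4826760, WBcel235) encodes mitochondrial HSP70, a protein of 657 residues that pulls in and folds imported chains. It had 201, 191 and 189.8 FPKM in vit-5 RNAi libraries, against 205, 178 and 219 FPKM in control libraries. The groups overlapped, and the vit-5 RNAi values all lay inside the control range. Means were 194 ± 5.93 FPKM after vit-5 RNAi and 201 ± 20.7 FPKM in controls (SD, n = 3 each). The log2 fold change of log2(FPKM + 1), vit-5 RNAi minus control, was -0.04 (95% interval -0.36 to 0.28; limma adjusted p 0.857). After median-of-ratios scaling it was -0.41, with 172, 174 and 166 scaled FPKM in vit-5 RNAi libraries, below the 210.4, 229 and 241 in control libraries. After quantile scaling it was -0.07 (unadjusted limma p 0.55), so the lower scaled level of hsp-6 depended on the scaling chosen.

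The gene hsp-60 (chromosome III, 1619742 to 1625803) encodes the mitochondrial chaperonin, a barrel in which proteins fold. Its FPKM were 149, 154 and 130.2 in vit-5 RNAi libraries, against 174, 189.6 and 179 in control libraries. All vit-5 RNAi libraries were below all control libraries, and vit-5 RNAi replicate 3 was lowest. Means were 144 ± 12.4 FPKM after vit-5 RNAi and 181 ± 7.77 FPKM in controls (SD, n = 3 each), a log2 fold change of -0.33 (SE 0.14). The limma p was 0.0442 unadjusted and 0.175 adjusted, and leaving out any 1 library moved the unadjusted limma p above 0.05, to between 0.0643 and 0.117. After median-of-ratios scaling the log2 fold change was -0.69, with an adjusted limma p of 0.186. After quantile scaling it was -0.38, with an adjusted limma p of 0.396.

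The gene dnj-10 (chromosome III, 8631165 to 8633565) encodes a mitochondrial J-domain protein, a type of co-chaperone that hands clients to HSP70. It had 27.5, 20.2 and 20.9 FPKM in vit-5 RNAi libraries, against 13.7, 9.65 and 11.8 FPKM in control libraries. The lowest vit-5 RNAi value was above the highest control value, and replicate 1 was highest in both groups. Means were 22.9 ± 4.01 FPKM after vit-5 RNAi and 11.7 ± 2.03 FPKM in controls (SD, n = 3 each), a ratio of 1.95. The log2 fold change of 0.91 (95% interval 0.40 to 1.42) had an unadjusted limma p of 0.00328 and an adjusted limma p of 0.122. It was 0.57 after median-of-ratios scaling, and the unadjusted limma p was below 0.05 in all 14 alternative settings run for this gene.

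Ratios between genes within a library are free of any factor that scales the whole library. They are not free of shifts that differ with expression level. The ratio of hsp-6 to hsp-60 was 1.35, 1.24 and 1.46 in vit-5 RNAi libraries, against 1.17, 0.94 and 1.22 in control libraries. Every vit-5 RNAi ratio was above every control ratio. The exact permutation test (2-sided) gave p 0.1, its lower limit with groups of this size. The ratio of hsp-6 to hsp-1, the cytosolic HSP70 gene, averaged 0.0983 ± 0.0159 after vit-5 RNAi and 0.0918 ± 0.00627 in controls (exact permutation p 0.7, n = 3 each). That of hsp-6 to hsp-3, an HSP70 gene of the endoplasmic reticulum (ER), averaged 0.665 ± 0.0372 after vit-5 RNAi and 0.698 ± 0.0263 in controls (exact permutation p 0.3, n = 3 each). Adjusted over these 3 ratios, the exact permutation p-values were 0.3, 0.7 and 0.45. The ratio of dnj-10 to hsp-6, chosen after the values were seen and not tested, was 0.137, 0.106 and 0.11 in vit-5 RNAi libraries, against 0.067, 0.0541 and 0.054 in control libraries. The log2 fold changes of dnj-10 and hsp-6 were 0.91 and -0.04 as deposited, but 0.50 and -0.07 after quantile scaling.

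Of the 4 protease genes, lonp-1, ymel-1 and spg-7 were higher in every vit-5 RNAi library, while clpp-1 overlapped. The gene lonp-1 (chromosome I, 10676922 to 10682374) encodes the Lon protease of the matrix, which also degrades ATFS-1 in healthy mitochondria. Its FPKM were 21.6, 15.5 and 12.7 in vit-5 RNAi libraries, against 10.2, 7.97 and 9.17 in control libraries. The vit-5 RNAi libraries spread more widely than the control libraries, and replicate 1 was highest in both groups. Means were 16.6 ± 4.58 FPKM after vit-5 RNAi and 9.12 ± 1.12 FPKM in controls (SD, n = 3 each), a log2 fold change of 0.77 (SE 0.25). The limma p was 0.0135 unadjusted and 0.129 adjusted. The log2 fold change was 0.44 after median-of-ratios scaling (unadjusted limma p 0.0718) and 0.31 after quantile scaling (unadjusted limma p 0.205). Without vit-5 RNAi replicate 1 it was 0.58.

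The gene clpp-1 (chromosome II, 10300714 to 10302842) encodes the ClpP subunit of the other matrix protease, which in the worm supplies peptides for signalling. It had 43.3, 41.3 and 44.4 FPKM in vit-5 RNAi libraries, against 41.5, 32.2 and 43.9 FPKM in control libraries. The groups overlapped, with control replicate 2 apart at the low end. Its log2 fold change was 0.14 (95% interval -0.27 to 0.55; limma adjusted p 0.622), and it turned to -0.21 after median-of-ratios scaling, to -0.14 after upper-quartile or quantile scaling, and to -0.01 without vit-5 RNAi replicate 3 and control replicate 2, the libraries with the most ribosomal RNA. The ratio of lonp-1 to clpp-1, chosen after the values were seen, was 0.4998, 0.376 and 0.285 in vit-5 RNAi libraries, against 0.246, 0.248 and 0.209 in control libraries, and was not tested. The log2 fold changes of lonp-1 and clpp-1 were 0.77 and 0.14 as deposited, but 0.31 and -0.14 after quantile scaling.

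The genes ymel-1 and spg-7 encode inner-membrane proteases of the AAA family. A further gene of that family, ppgn-1, for a relative of SPG-7, is outside the 10 and had 19.6 ± 1.44 FPKM after vit-5 RNAi and 19.6 ± 1.42 FPKM in controls (SD, n = 3 each), with a log2 fold change of 0.00 and of -0.35 after median-of-ratios scaling; it was named after its values were seen. The gene ymel-1 (chromosome III, 10416139 to 10421757), for the protease facing the intermembrane space, had 24.4, 22.5 and 19.7 FPKM in vit-5 RNAi libraries, against 17.8, 13.1 and 15.6 FPKM in control libraries. The gene spg-7 (chromosome I, 3467132 to 3478517), for an AFG3-like protease facing the matrix, had 18.6, 15.95 and 16.5 FPKM in vit-5 RNAi libraries, against 14.3, 10.8 and 11.6 FPKM in control libraries. Neither gene's groups overlapped. In log2 terms ymel-1 differed by 0.50 (SE 0.20; limma adjusted p 0.164) and spg-7 by 0.45 (SE 0.20; limma adjusted p 0.193). After median-of-ratios scaling these were 0.15 and 0.11, and the groups then overlapped for both genes. After quantile scaling they were 0.09 and 0.03. The ratio of ymel-1 to spg-7 averaged 1.31 ± 0.106 after vit-5 RNAi and 1.27 ± 0.0739 in controls (SD, n = 3 each), with overlapping groups. That ratio was chosen after the values were seen and was not tested.

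**Figure D2:**
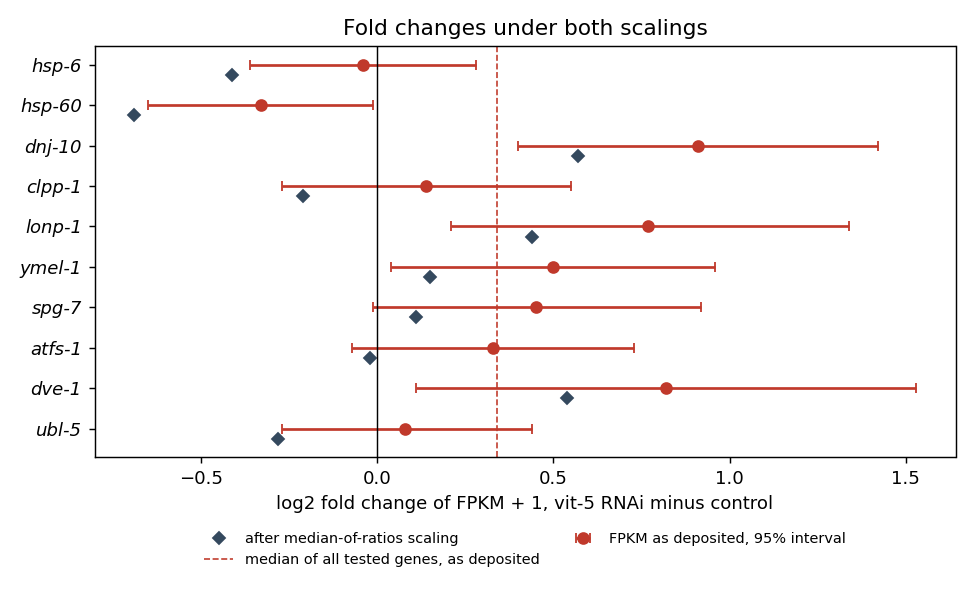
Log2 fold change of each gene (vit-5 RNAi minus control, on log2(FPKM + 1)) from the deposited FPKM with its 95% interval (red circles) and after median-of-ratios scaling (dark diamonds), with the median of all tested genes, 0.34, as a dashed line. The interval of dnj-10, 0.40 to 1.42, and that of hsp-60, -0.65 to -0.01, lie on opposite sides of that line, and the diamonds stand to the left of the circles for all 10 genes.

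The regulators also differed among themselves. The gene atfs-1 (chromosome V, 14193663 to 14197700) encodes the bZIP transcription factor that carries both a mitochondrial and a nuclear targeting signal. Its FPKM were 57.4, 42.9 and 50.9 in vit-5 RNAi libraries, against 42.4, 37.2 and 39.05 in control libraries. The groups came close, with vit-5 RNAi replicate 2 just above control replicate 1. Means were 50.4 ± 7.3 FPKM after vit-5 RNAi and 39.6 ± 2.65 FPKM in controls (SD, n = 3 each), and the log2 fold change of 0.33, with an SE of 0.17 and a limma adjusted p of 0.247, was close to the median of all tested genes. After median-of-ratios scaling it was -0.02.

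The gene dve-1 (chromosome X, 427035 to 433812) encodes a homeodomain protein that binds chromatin and joins the response in the nucleus. It was the least expressed of the 10, at 7.82, 5.67 and 4.73 FPKM in vit-5 RNAi libraries, against 4.38, 1.73 and 3.16 FPKM in control libraries. The groups did not overlap, but the lowest vit-5 RNAi value and the highest control value differed by far less than the spread within either group. Means were 6.07 ± 1.59 FPKM after vit-5 RNAi and 3.09 ± 1.33 FPKM in controls (SD, n = 3 each), a difference of 0.82 in log2 terms (SE 0.31; limma adjusted p 0.151). It was 0.54 after median-of-ratios scaling, when the groups overlapped, 0.37 after quantile scaling (unadjusted limma p 0.266), and 0.56 without control replicate 2. By the rough depth estimate, its libraries rested on between 85.1 and 358 fragments, the fewest of the 10 genes.

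The gene ubl-5 (chromosome I, 5607826 to 5608841) encodes a ubiquitin-like protein of 73 residues that acts with DVE-1. It had 159, 190.6 and 144 FPKM in vit-5 RNAi libraries, against 163, 154 and 145 FPKM in control libraries. The groups overlapped and vit-5 RNAi replicate 2 stood above the rest. The log2 fold change was 0.08 (95% interval -0.27 to 0.44; limma adjusted p 0.743). It was -0.28 after median-of-ratios and -0.20 after upper-quartile scaling, and -0.03 without vit-5 RNAi replicate 2.

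Ordered by mean FPKM, the control libraries had hsp-6, hsp-60, ubl-5, atfs-1, clpp-1, ymel-1, spg-7, dnj-10, lonp-1 and dve-1. Neighbours whose ranges overlapped there were hsp-6 with hsp-60, atfs-1 with clpp-1, ymel-1 with spg-7, spg-7 with dnj-10, and dnj-10 with lonp-1. After vit-5 RNAi the order was hsp-6, ubl-5, hsp-60, atfs-1, clpp-1, dnj-10, ymel-1, spg-7, lonp-1 and dve-1. Overlapping neighbours were then hsp-6 with ubl-5, ubl-5 with hsp-60, atfs-1 with clpp-1, dnj-10 with ymel-1, and spg-7 with lonp-1. Of the FPKM sum of the 10 genes, hsp-60 held 21.2% ± 0.737 after vit-5 RNAi and 27.2% ± 2.35 in controls (SD, n = 3 each). The 4 proteases together held 14.5% ± 0.816 after vit-5 RNAi and 11.4% ± 1.12 in controls (SD, n = 3 each). For both shares the groups did not overlap, and hsp-6 held 28.5% ± 1.34 after vit-5 RNAi and 30.1% ± 2.11 in controls, with overlapping groups. The shares were not planned and not tested. Those of hsp-60 and the proteases draw on hsp-60, lonp-1, ymel-1 and spg-7, whose groups were already apart.

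The genes dnj-10, lonp-1, ymel-1, spg-7, atfs-1 and dve-1 are those that were higher in every vit-5 RNAi library, so their likeness over all 6 libraries follows in part from that choice. Within vit-5 RNAi, lonp-1, ymel-1 and dve-1 were higher in replicate 2 than in replicate 3, while dnj-10, spg-7 and atfs-1 were higher in replicate 3. Each of these 6 genes was highest in replicate 1 of both groups, the libraries lowest in rol-6 and highest in the germline marker sum. Whether those markers have a part in the values of the 6 genes was not tested. Without both replicate 1 libraries, a setting chosen after the data were seen, the log2 fold changes were 0.89 for dnj-10, 0.65 for lonp-1, 0.53 for ymel-1, 0.50 for spg-7, 0.29 for atfs-1 and 0.88 for dve-1. Without vit-5 RNAi replicate 3 and control replicate 2, the libraries with the most ribosomal RNA, they were 0.84 for dnj-10, 0.86 for lonp-1, 0.47 for ymel-1, 0.40 for spg-7, 0.28 for atfs-1 and 0.70 for dve-1. With the same library pairs left out, hsp-60 had -0.38 and -0.22.

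**Figure D3:**
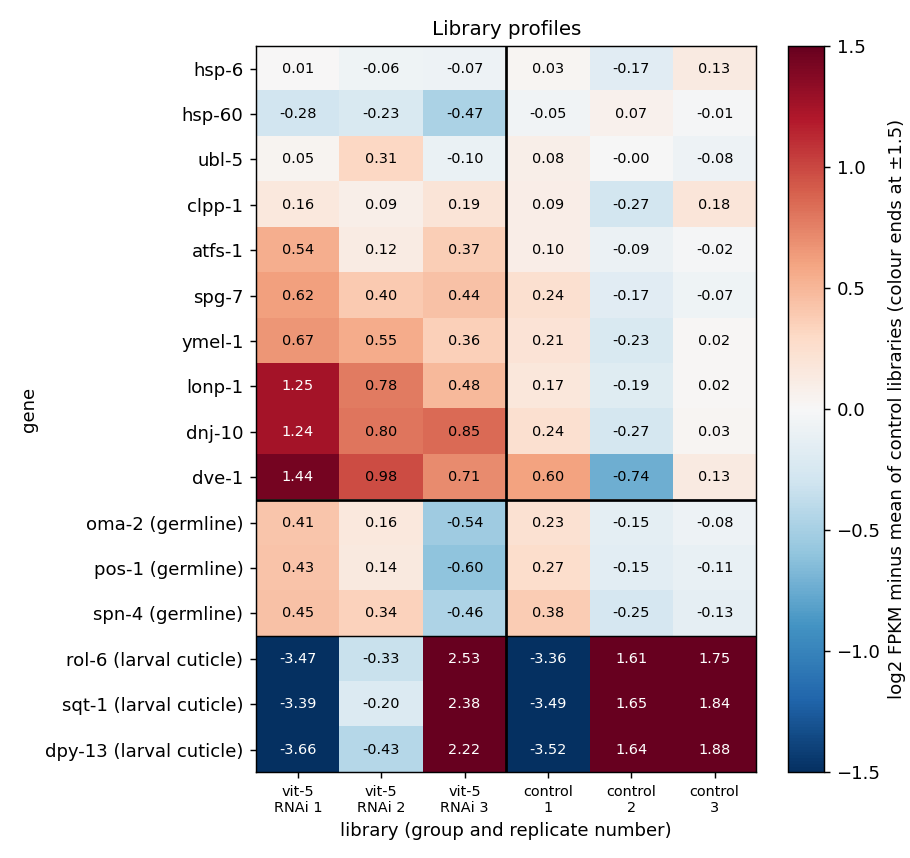
Log2 FPKM of each gene minus its mean over the control libraries, by library (columns, vit-5 RNAi left and control right), for the 10 genes and, below the line, 3 germline and 3 larval cuticle genes chosen for display after their values were seen, with colour ending at ±1.5. In vit-5 RNAi replicate 1, dve-1 reached 1.44, lonp-1 1.25 and dnj-10 1.24, where rol-6 was at -3.47. The larval cuticle genes dpy-17 and sqt-3, not shown, were instead highest in replicate 1 of both groups.

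For hsp-6, hsp-60 and atfs-1 the protein-coding genes with the most similar profile over the 6 libraries were looked up by Pearson's r of log2(FPKM + 1), as a description. The nearest to hsp-6 were Y56A3A.19 (r 0.976), the transporter gene abt-4 (0.953) and mrpl-21 (0.951), named for a mitochondrial ribosomal protein. The nearest to hsp-60 were Y106G6H.8 (0.997), F32D1.5 (0.996) and the 14-3-3 gene par-5 (0.993). Those nearest to atfs-1 were F40F4.7 (0.998), uggt-1 (0.996), for a glucosyltransferase of ER quality control, and the p38 kinase gene pmk-1 (0.993). With 12496 genes compared over 6 libraries that share one group difference, the number of genes past an r of 0.95 was 3 for hsp-6, 66 for hsp-60 and 190 for atfs-1.

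Further genes of the pathway were taken from lists, and 0 of their members passed the adjusted threshold in limma. Among 10 other regulators of the response, 9 were above 0 (79.5% of all tested genes). Their median log2 fold change was 0.65, and 0.37 after median-of-ratios scaling. An unadjusted limma p under 0.05 was reached by 6 of them, each higher after vit-5 RNAi, where 26.2% of all tested genes were higher at that level. After median-of-ratios scaling 3 of the 10 did not overlap as higher (14.4% of all tested genes) and 1 as lower (16.3%). The highest was jmjd-3.1, for a histone demethylase, at 4.43 ± 0.347 FPKM after vit-5 RNAi and 1.92 ± 0.578 FPKM in controls (SD, n = 3 each; log2 fold change 0.91). The lowest was zip-3, for a bZIP protein that restrains ATFS-1, at 23.1 ± 3.23 FPKM after vit-5 RNAi and 28.98 ± 0.329 FPKM in controls (SD, n = 3 each; log2 fold change -0.32). The gene haf-1, for the transporter that exports peptides from the matrix, had 2.27 ± 0.514 FPKM after vit-5 RNAi and 1.14 ± 0.116 FPKM in controls (SD, n = 3 each). It was named after its values were seen, and its control values of 1.27, 1.05 and 1.09 FPKM were near the filter of 1 FPKM. Its log2 fold change was 0.60, and 0.38 after median-of-ratios scaling.

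Of 10 other mitochondrial folding, scaffold and proteolysis genes, 9 were tested, since K07A3.3 was near 0. Of the 9, 5 were above 0 (79.5% of all tested genes), with a median of 0.23. They ran from 0.62 for atad-3, a membrane AAA ATPase, to -0.27 for Y22D7AL.10, which encodes the HSP10 partner of HSP-60. That gene had 566 ± 62.9 FPKM after vit-5 RNAi and 680.4 ± 82.1 FPKM in controls (SD, n = 3 each), with overlapping groups. An unadjusted limma p under 0.05 was reached by 2 of the 9, atad-3 and stl-1, both higher, beside 26.2% of all tested genes.

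Of 17 import genes, 12 were below 0 and 5 above (79.5% of all tested genes were above), with a median of -0.13. The extremes were tomm-20, an outer-membrane receptor, and tin-44, a part of the inner-membrane import motor. The gene tomm-20 had 267 ± 25.2 FPKM after vit-5 RNAi and 348 ± 27.5 FPKM in controls, and tin-44 had 26.7 ± 5.32 FPKM after vit-5 RNAi and 13.3 ± 2.25 FPKM in controls (SD, n = 3 each). Their log2 fold changes were -0.38 and 0.95. At an unadjusted limma p under 0.05 the list of 17 had 2 higher genes, tin-44 and tomm-70, and 1 lower, tomm-20. Of all tested genes 26.2% were higher and 0.906% lower at that level.

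Of 13 genes for mitochondrial division, fusion and mitophagy, 12 were tested and 9 were above 0 (79.5% of all tested genes), with a median of 0.46. At an unadjusted limma p under 0.05, eat-3, pink-1, dct-1, fzo-1 and allo-1 were higher, 5 of 12 beside 26.2% of all tested genes. After median-of-ratios scaling 1 gene of the 12, pink-1, did not overlap as higher (14.4% of all tested genes). As lower, 2 did not overlap (16.3% of all tested genes). They ran from 0.96 for eat-3, the inner-membrane fusion gene, to -0.22 for fndc-1, a mitophagy receptor. The kinase gene pink-1, which marks damaged mitochondria, was named after its values were seen, at 25.1, 21.8 and 19.5 FPKM in vit-5 RNAi libraries against 15.4, 10.96 and 11.8 FPKM in control libraries.

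Nuclear genes of the respiratory chain lay mostly below 0, unlike the median of all tested genes. Of 34 tested, 33 were below 0 and 1 above (79.5% of all tested genes were above), with a median of -0.18. At an unadjusted limma p under 0.05, 1 was lower, cox-4 (0.906% of all tested genes), and 0 were higher (26.2%). They ran from -0.40 for cox-4 to 0.31 for nuo-4, both encoding respiratory complex subunits. Median-of-ratios scaling moved the medians to -0.12 for the other folding and proteolysis genes, -0.49 for import, 0.11 for division, fusion and mitophagy, and -0.54 for the respiratory chain. These medians depend on the scaling, and none were taken after quantile scaling. For cox-4 the median-of-ratios value was -0.76 and the quantile value -0.28, and for nuo-4 they were -0.05 and 0.20. For tomm-20 they were -0.75 and -0.37, and for tin-44 0.61 and 0.56.

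Chaperones of the other compartments give a point of comparison for hsp-6 and hsp-60. The 16 constitutive cytosolic chaperones had a median log2 fold change of -0.13, with 10 below 0 and 6 above (79.5% of all tested genes were above). At an unadjusted limma p under 0.05 the list had 0 genes, beside 26.2% higher and 0.906% lower of all tested genes. Their extremes were dnj-19 (0.33) and cct-7 (-0.34). The cytosolic hsp-1 had 2007 ± 325 FPKM after vit-5 RNAi and 2184 ± 151 FPKM in controls (SD, n = 3 each). The 16 ER folding and stress genes had a median of 0.37, with 12 above 0 (79.5% of all tested genes) and 7 higher at an unadjusted limma p under 0.05 (26.2% of all tested genes), and ran from 1.07 for the kinase gene pek-1 to -0.21 for pdi-1. The ER HSP70 genes hsp-3 and hsp-4 had log2 fold changes of 0.02 and 0.30. After median-of-ratios scaling the medians were -0.49 for the cytosolic and 0.01 for the ER list. The scaling mattered here too, as hsp-1 had -0.50 after median-of-ratios and -0.00 after quantile scaling.

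**Figure D4:**
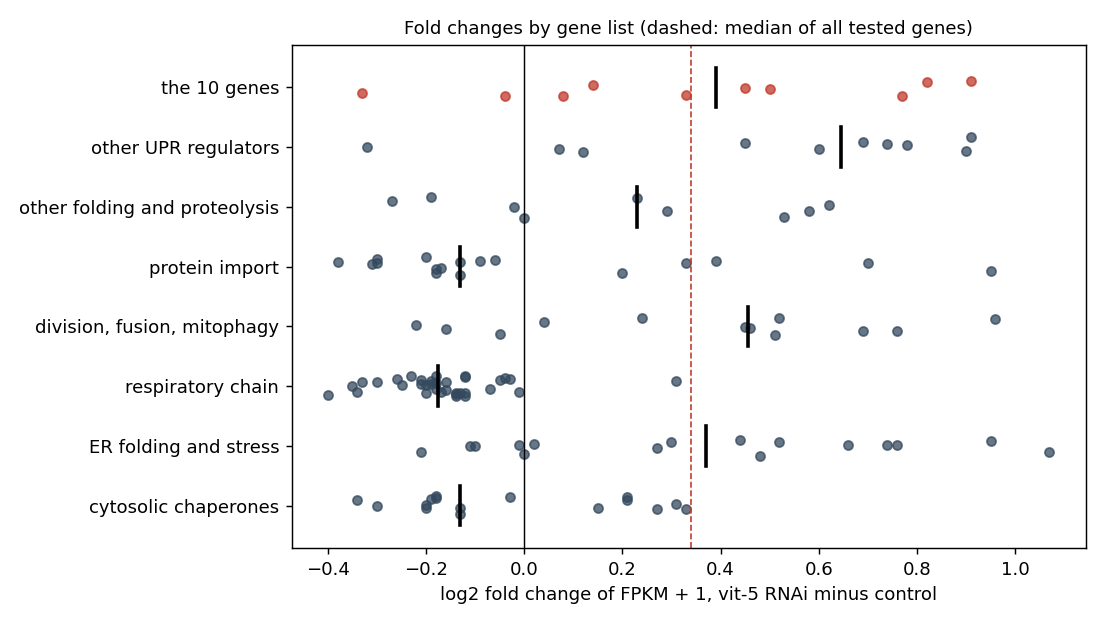
Log2 fold change of log2(FPKM + 1), vit-5 RNAi minus control, for each tested gene of the 10 described (red) and of 7 other lists (dark), jittered vertically, with list medians as black bars and the median of all tested genes, 0.34, as a dashed line. The 10 genes span -0.33 to 0.91, while 33 of 34 respiratory chain genes lie below 0. Of all tested genes 79.5% were above 0.

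Tissue markers were read from the same libraries. Medians of the log2 fold change were -0.05 for 12 germline genes (from puf-5 at -0.30 to glp-1 at 0.83), 0.14 for 10 larval cuticle genes (from dpy-13 at -0.61 to dpy-17 at 0.66), 0.51 for 9 intestine genes (from asp-1 at -0.06 to ges-1 at 1.01), 0.19 for 9 muscle genes (from act-4 at 0.00 to unc-22 at 0.71) and 0.54 for 8 neuron genes (from snb-1 at -0.11 to ric-4 at 1.35). All tested genes had a median of 0.34. After median-of-ratios scaling the list medians were -0.41 for germline, -0.19 for larval cuticle and 0.15 for intestine genes. Those of muscle and neuron genes were then -0.17 and 0.19, beside 0.03 for all tested genes. Summed intestine markers ran from 4254 to 4790 FPKM in vit-5 RNAi libraries and from 4121 to 4647 FPKM in control libraries. No marker of these lists was listed at 0 in any library. The part of tissue makeup in the values of the 10 genes was not tested.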

How the data were processed

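FPKM per gene, per the file headers, are the values the authors deposited. Which program made them is not stated in the labels or headers. Named in the submitters' processing notes are DESeq 1.18.0, HTSeq 0.6.1, TopHat2 2.0.12, Bowtie2 2.2.3 and the build WBcel235. Zeros are mostly written as 0.0001. Depth is not stated, and the spacing of low values put it roughly between 17050000 and 20800000 fragments, with 32% to 34.5% of low values within 0.1 of a whole fragment, too few to recover counts.

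Values were fitted as log2(FPKM + 1) in limma 3.58.1 (R 4.3.3) with a mean-variance trend and group as the only term, over the 12908 genes that reached 1 FPKM in 3 or more libraries, with Benjamini-Hochberg adjustment at 0.05. The plus 1 understates changes of low genes. On artificial data of the same size the fit recovered 2% of genes changed by 0.5 on the log2 scale, 26% by 1, 78% by 2 and 96% by 3. There 12708 of 12908 genes were unchanged, whereas 79.5% of the real genes were above 0. In the real libraries vit-5, at -5.03, did not pass (limma adjusted p 0.0552). The recovered shares may therefore overstate what the fit could detect here. Positions and protein lengths are from Ensembl release 115 of WBcel235, where no exon of the 10 genes overlaps another gene's. Strandedness is not given. The files list 3 to 5 RefSeq transcripts for hsp-60, clpp-1, atfs-1 and dve-1, and how these were combined is not given. The named genes were the 10, vit-5, relatives of hsp-6, each list's highest and lowest gene and the nearest profiles; others were named after their values were seen. Members and lists were chosen with earlier results of these data known. The alternatives are in the closing section. Python 3.11.15 and matplotlib 3.10.9 were also used.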

Additional observations from a re-analysis of the deposited data

How the results depend on the processing

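With limma on the deposited FPKM 0 genes passed an adjusted p of 0.05 (3378 higher and 117 lower at an unadjusted limma p under 0.05), and 0 of the 10 described. Both counts were also 0 with a pseudocount of 0.1, without the filter, and after median-of-ratios, upper-quartile or quantile scaling. With the replicate number as a block, 3806 genes passed, among them 4 of the 10: dnj-10 (adjusted limma p 0.0128), lonp-1 (0.0182), dve-1 (0.0258) and ymel-1 (0.0446). Deviations from the group means correlated at 0.75, 0.03 and 0.68 between libraries of the same number, and vit-5 RNAi replicate 2 correlated best with control replicate 1 (0.23), so the numbers were not taken to pair the libraries, and the blocked count is a hint from the data, not the design. Leaving out 1 library gave 0 to 5 genes (5 when vit-5 RNAi replicate 3 was dropped and 4 when vit-5 RNAi replicate 1 was) and 0 of the 10. Leaving out both replicate 1 libraries gave 2 genes, and omitting vit-5 RNAi replicate 3 with control replicate 2, highest in ribosomal RNA, gave 0, with 0 of the 10 in both. These last 2 settings were chosen after seeing the data.

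Over 14 alternatives the log2 fold changes of hsp-60 (-0.69 to -0.22), dnj-10 (0.50 to 1.02), lonp-1 (0.31 to 0.94), ymel-1 (0.09 to 0.60), spg-7 (0.03 to 0.56) and dve-1 (0.37 to 1.05) kept their direction. Signs turned for clpp-1 (-0.21 after median-of-ratios scaling, -0.14 after upper-quartile and -0.14 after quantile scaling, -0.01 without the pair highest in ribosomal RNA), for ubl-5 (-0.28 and -0.20 after median-of-ratios and upper-quartile scaling, and from -0.03 to 0.18 with 1 library left out), for atfs-1 (-0.02 after median-of-ratios scaling) and for hsp-6 (-0.13 to 0.02 with 1 library left out, the highest without control replicate 3). The cause was not tested. The log2 difference of the hsp-6 to hsp-60 ratio was 0.29, and 0.17 to 0.36 with 1 library left out. That of hsp-6 to hsp-1 was 0.09, and -0.04 (without vit-5 RNAi replicate 3) to 0.19, and that of hsp-6 to hsp-3 was -0.07. In the replicate block the exact sign-flip test of a ratio cannot go below p 0.25. Counting error is not known for FPKM and limits dve-1 most.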
